A study of Mus musculus with 2 samples.

Results

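The 10 genes described here encode 3 metallothioneins (Mt1, Mt2 and Mt3) and 7 antioxidant enzymes: the superoxide dismutases Sod1 and Sod2, the glutathione peroxidases Gpx1 and Gpx4, and the peroxiredoxins Prdx1, Prdx2 and Prdx5. The set is defined by gene names, with no threshold on values, and its members were found by matching Ensembl identifiers to mouse symbols; all 10 were present among the 43346 mouse genes listed. Expression was measured by RNA sequencing of hindbrain tissue from 2 newborn mouse pups (age 0 days, postnatal) of strain B6NCrl, for which the labels name no treatment or transgene and give sex as not collected. The libraries, pup 1 (replicate 1) and pup 3 (replicate 2), form 1 group; each was made from 13 pg of mirVana-extracted RNA longer than 200 nt, an amount described as 1 cell-equivalent. The assay is titled single cell RNA-seq and points to a Smart-seq protocol, but the input was RNA of a whole hindbrain, so each library samples the mixed cells of the tissue. Both pups carry the same donor record.

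Metallothioneins are small cysteine-rich proteins that bind zinc and copper and scavenge radicals. Mt1 and Mt2 are found in many tissues and are induced by metals through the zinc-sensing transcription factor MTF-1, whereas Mt3 is the form enriched in the central nervous system. The enzymes act in sequence: superoxide dismutases turn superoxide into hydrogen peroxide, and glutathione peroxidases and peroxiredoxins reduce hydrogen peroxide and lipid or organic peroxides at the expense of glutathione or thioredoxin. Astrocytes are known as a main site of metallothionein expression in brain.

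The coding sequences of the 3 metallothioneins are shown because the cysteine codons, in capitals, are what these proteins share. They are the GENCODE M21 coding sequences on GRCm38, 5′ to 3′, without the stop codon; all 3 genes lie on the plus strand of chromosome 8, Mt3 at 94152607 to 94154146, Mt2 at 94172664 to 94173568 and Mt1 at 94179082 to 94180327.
Mt1: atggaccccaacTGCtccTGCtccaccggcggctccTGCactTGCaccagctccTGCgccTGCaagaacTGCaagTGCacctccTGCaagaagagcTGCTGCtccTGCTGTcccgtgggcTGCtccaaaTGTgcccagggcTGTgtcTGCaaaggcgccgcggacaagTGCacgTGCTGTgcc
Mt2: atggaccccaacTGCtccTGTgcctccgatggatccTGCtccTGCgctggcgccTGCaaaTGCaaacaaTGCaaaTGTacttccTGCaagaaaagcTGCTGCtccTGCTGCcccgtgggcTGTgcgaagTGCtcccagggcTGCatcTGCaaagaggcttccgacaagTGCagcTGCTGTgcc
Mt3: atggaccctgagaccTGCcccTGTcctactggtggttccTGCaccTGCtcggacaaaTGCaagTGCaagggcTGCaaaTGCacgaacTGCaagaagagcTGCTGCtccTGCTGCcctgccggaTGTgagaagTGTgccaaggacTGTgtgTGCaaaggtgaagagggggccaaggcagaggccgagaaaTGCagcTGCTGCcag
Mt1 and Mt2 each had 61 codons, of which 20 (32.8%) encoded cysteine, and Mt3 had 68 codons, also with 20 for cysteine (29.4%). Mt1 and Mt2 were identical at 79.2% of aligned bases. Mt3 was identical to Mt1 at 65.7% and to Mt2 at 67.2% of aligned columns, 21 of which were gaps in the shorter sequence. The longest run of bases found in both coding sequences, sought without the alignment, was 20 for Mt1 and Mt2, 27 for Mt1 and Mt3 and 20 for Mt2 and Mt3. No window of 100 bases in their annotated transcripts occurred in a transcript of another gene, so exact matches of that length were unique to each of the 3 genes.

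All 10 genes were detected in both libraries, where detection asked for 5 or more expected counts. Among all protein-coding genes listed, 8102 of 21461 (37.8%) reached that count in both. The lowest of the 20 counts was 575 (Mt2 in pup 3) and the highest 22997 (Prdx2 in pup 1). Expected counts summed to 35462381 in the pup 1 library and to 29866728 in the pup 3 library, and 3 counts of one of these genes corresponded to 0.0389 to 0.374 TPM. The 10 genes took 0.285% of the nuclear gene counts of pup 1, with a 95% Wilson interval from 0.283 to 0.286%, and 0.229% of those of pup 3, with an interval from 0.227 to 0.231%. These intervals cover counting error only. Levels below are TPM, a length-scaled share of transcripts, rescaled over nuclear genes, and folds are ratios of that TPM. Each pup gave 1 library, so a difference between them has no replicate check, and no test was made. In tissue RNA, fewer cells of a type and less RNA per cell cannot be told apart.

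**Figure D1:**
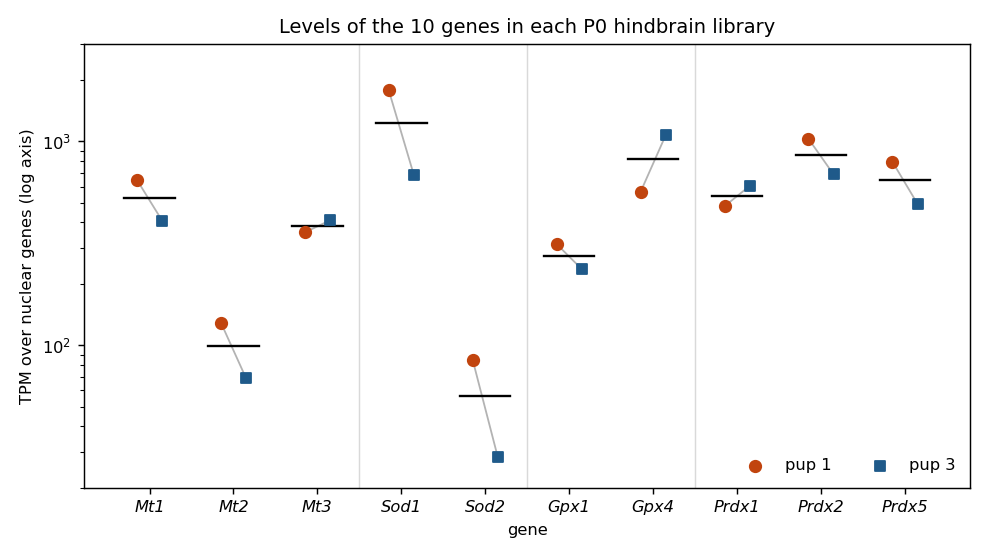
Each gene's TPM over nuclear genes (log axis) in pup 1 (circles) and pup 3 (squares), with the mean of both as a bar; thin vertical lines separate the metallothioneins, superoxide dismutases, glutathione peroxidases and peroxiredoxins. Mt3, Gpx4 and Prdx1 were higher in pup 3, and the other genes were higher in pup 1.

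Mt1, the most abundant of the metallothioneins by its mean, had 646 TPM in pup 1 against 408 TPM in pup 3 (527 ± 168, SD, n = 2), a 1.58-fold higher level in pup 1. Mt2, the closest relative of Mt1, had 129 TPM in pup 1 against 68.9 TPM in pup 3 (99.0 ± 42.5), 1.87-fold higher in pup 1. Mt3 had 358 TPM in pup 1 against 410 TPM in pup 3 (384 ± 36.9), 1.15-fold higher in pup 3. Both metal-inducible genes were thus higher in pup 1, and the brain-enriched gene had the smallest fold difference between the pups of all 10. The log2 ratio of Mt3 (pup 1 over pup 3) was -0.20, close to the median of -0.14 over all protein-coding genes detected in both pups. Within a library, Mt1 exceeded Mt2 by 5.01-fold in pup 1 and 5.93-fold in pup 3. Mt1 exceeded Mt3 by 1.81-fold in pup 1, whereas their ratio in pup 3 was 0.996. As a result Mt3 supplied 31.6% of the metallothionein TPM in pup 1 and 46.2% in pup 3, while the summed level was 1133 TPM in pup 1 against 887 TPM in pup 3.

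Sequence upstream of the 3 genes is shown to place matches to the site that MTF-1 binds. Whether such matches relate to the levels in the 2 pups was not tested. These are the 250 bases before each RefSeq start on GRCm38.p6, plus strand, at chr8:94178839-94179088 (Mt1), chr8:94172368-94172617 (Mt2) and chr8:94152357-94152606 (Mt3). Capitals mark matches to the core of the metal response element, the site that MTF-1 binds, searched on both strands as TGCACNC or TGCGCNC.
Mt1: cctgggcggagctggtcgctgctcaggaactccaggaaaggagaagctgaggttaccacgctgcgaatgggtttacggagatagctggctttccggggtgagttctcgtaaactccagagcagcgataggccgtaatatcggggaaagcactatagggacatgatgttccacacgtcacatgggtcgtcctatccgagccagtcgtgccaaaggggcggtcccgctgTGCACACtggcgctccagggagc
Mt2: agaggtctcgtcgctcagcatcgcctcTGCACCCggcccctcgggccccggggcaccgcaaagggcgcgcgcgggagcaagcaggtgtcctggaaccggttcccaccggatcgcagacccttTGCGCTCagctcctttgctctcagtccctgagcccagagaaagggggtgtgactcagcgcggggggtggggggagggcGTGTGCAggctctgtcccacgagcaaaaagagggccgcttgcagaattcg
Mt3: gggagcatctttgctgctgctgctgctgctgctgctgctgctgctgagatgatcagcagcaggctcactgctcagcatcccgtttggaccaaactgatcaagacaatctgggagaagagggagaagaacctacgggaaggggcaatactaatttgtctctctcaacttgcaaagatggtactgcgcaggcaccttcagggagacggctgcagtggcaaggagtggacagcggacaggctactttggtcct
Counting also the 50 bases from the RefSeq start onward, not printed, the 300-base window held 3 core matches for Mt1, 4 for Mt2 and 1 for Mt3. Positions below are relative to this RefSeq start, and other starts of these 3 genes were not examined. Among 32851 such windows of mouse genes, 25.7% held at least 1 core match, 1.97% at least 3 and 0.517% at least 4. Mt1 had its matches at bases -23 to -17 and, past the annotated start, at bases 3 to 9 and 21 to 27. Mt2 had matches at -223 to -217, -128 to -122, -50 to -44 and, past the start, 5 to 11. In Mt3 the only match lay past the start, at bases 28 to 34. None of the windows of the 7 enzymes held a match. The core of the antioxidant response element, TGACNNNGC, occurred once each in the windows of Mt2, Prdx1 and Sod1, against 12.4% of all windows, and overlapped no metal response core. A match is a run of letters, not a shown binding site, and a missing match says only that these letters are not in this window.

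Sod1, the cytosolic copper-zinc superoxide dismutase (GRCm38 chromosome 16, 90220754 to 90226329, plus strand; positions of the genes below are on the same build), was by its mean the most abundant of the 10 genes, with 1777 TPM in pup 1 against 681 TPM in pup 3 (1229 ± 775, SD, n = 2). It ranked 36th among protein-coding genes in pup 1 and 187th in pup 3, and was 2.61-fold higher in pup 1. Sod2, the manganese enzyme of the mitochondrial matrix (chromosome 17, 13006846 to 13040063, plus strand), was the least abundant, with 84.6 TPM in pup 1 against 28.2 TPM in pup 3 (56.4 ± 39.9), 3.00-fold higher in pup 1. Both superoxide dismutases were therefore higher in pup 1 by a similar factor, and their ratio within a library was steadier than either level: Sod1 exceeded Sod2 by 21.0-fold in pup 1 and 24.2-fold in pup 3. Sod1 made up 95.5% of their summed TPM in pup 1 and 96.0% in pup 3.

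Gpx1, the cytosolic selenoenzyme that reduces hydrogen peroxide (chromosome 9, 108338903 to 108340343, plus strand), had 313 TPM in pup 1 against 236 TPM in pup 3 (275 ± 54.7, SD, n = 2). Gpx4, which reduces lipid hydroperoxides in membranes and restrains ferroptosis (chromosome 10, 80047166 to 80056439, plus strand), had 565 TPM in pup 1 against 1073 TPM in pup 3 (819 ± 359). The glutathione peroxidases differed in opposite directions, Gpx1 by 1.33-fold with the higher value in pup 1 and Gpx4 by 1.90-fold with the higher value in pup 3. Gpx4 exceeded Gpx1 by 1.80-fold in pup 1 and 4.55-fold in pup 3, and made up 64.3% of their summed TPM in pup 1 and 82.0% in pup 3. Both enzymes carry selenocysteine, encoded by an in-frame TGA that is shown here, in capitals, in the GENCODE M21 coding sequence.
Gpx1: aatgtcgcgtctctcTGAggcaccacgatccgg
Gpx4: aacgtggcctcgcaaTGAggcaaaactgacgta
It is codon 47 of Gpx1-201 and codon 73 of Gpx4-202.

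Prdx2, a cytosolic 2-cysteine peroxiredoxin abundant in neurons and red blood cells (chromosome 8, 84969587 to 84974834, plus strand), had 1029 TPM in pup 1 against 688 TPM in pup 3 (858 ± 241, SD, n = 2). Prdx5, the atypical peroxiredoxin of mitochondria, peroxisomes and cytosol (chromosome 19, 6906697 to 6910106, minus strand), had 794 TPM in pup 1 against 493 TPM in pup 3 (644 ± 212). Prdx1, the other cytosolic enzyme (chromosome 4, 116685544 to 116700822, plus strand), had 480 TPM in pup 1 against 604 TPM in pup 3 (542 ± 87.8). Prdx2 and Prdx5 were higher in pup 1, by 1.5-fold and 1.61-fold, and Prdx1 was higher in pup 3, by 1.26-fold. Prdx2 led this family in both pups. It exceeded Prdx5 by 1.3-fold in pup 1 and 1.39-fold in pup 3, but exceeded Prdx1 by 2.14-fold in pup 1 and only 1.14-fold in pup 3.

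By mean TPM the order was Sod1, Prdx2, Gpx4, Prdx5, Prdx1, Mt1, Mt3, Gpx1, Mt2 and Sod2. Most of this order did not stand clear of the spread between the pups. Of the 9 neighbouring pairs, 2 had values that did not overlap, Mt3 above Gpx1 and Gpx1 above Mt2. Mt2 was above Sod2 within each pup, though their ranges overlapped. The leading gene itself differed between the libraries: Sod1 was highest in pup 1 and Gpx4 in pup 3, and Gpx4 stood at 0.318 times Sod1 in pup 1 and 1.57 times Sod1 in pup 3. Over all 45 pairs of genes, 32 did not overlap and 37 had the same order in both pups.

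**Figure D2:**
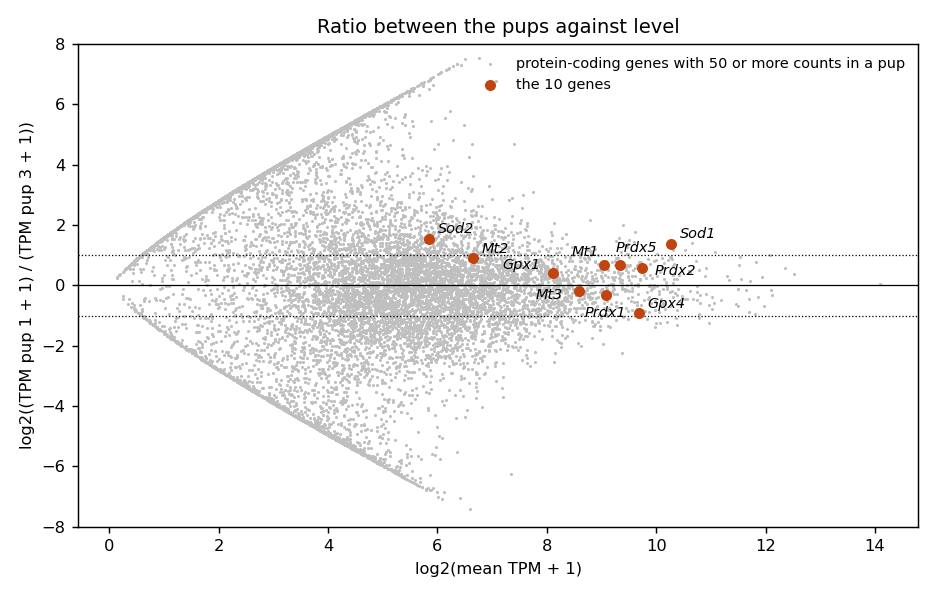
Log2 ratio of pup 1 over pup 3 (TPM + 1) against log2 of the mean TPM + 1 for the 11245 protein-coding genes with 50 or more counts in a pup (grey), with the 10 genes in colour and dotted lines at 2-fold. Sod1 and Sod2 lie above the upper line and Gpx4 just inside the lower one.

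Between the pups, Sod1 and Sod2 differed by 2-fold or more, both higher in pup 1, and none of the 10 did so with the higher value in pup 3. Among 11245 protein-coding genes that had 50 or more expected counts in a pup, 35.6% were 2-fold or more higher in pup 1 and 28.7% were 2-fold or more higher in pup 3. Among the 2991 of them whose mean TPM lay between that of Sod2 and that of Sod1, a range set after the values were seen, the shares were 14.7% higher in pup 1 and 20.3% higher in pup 3. A count of 2 of 10 higher in pup 1 is thus below the share over all genes and near that at similar levels, and is not a result about these genes. Over the 10 genes the log2 ratio (pup 1 over pup 3) had a median of 0.62, against -0.14 over all protein-coding genes detected in both pups and -0.11 over those at similar levels. The 10 genes come from the same 2 libraries and are not replicates, so this gap in medians was not tested. The median size of the difference, in either direction, was 1.60-fold over the 10 genes and 1.63-fold over 2968 genes at similar levels detected in both. The 3 protein-coding genes whose values over the 2 libraries lay nearest to those of Sod1, by distance on log2(TPM + 1), were Rpl3 with 1753 TPM in pup 1 against 683 TPM in pup 3, Dpysl2 with 1749 TPM in pup 1 against 783 TPM in pup 3, and Rps18 with 1605 TPM in pup 1 against 828 TPM in pup 3.

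**Figure D3:**
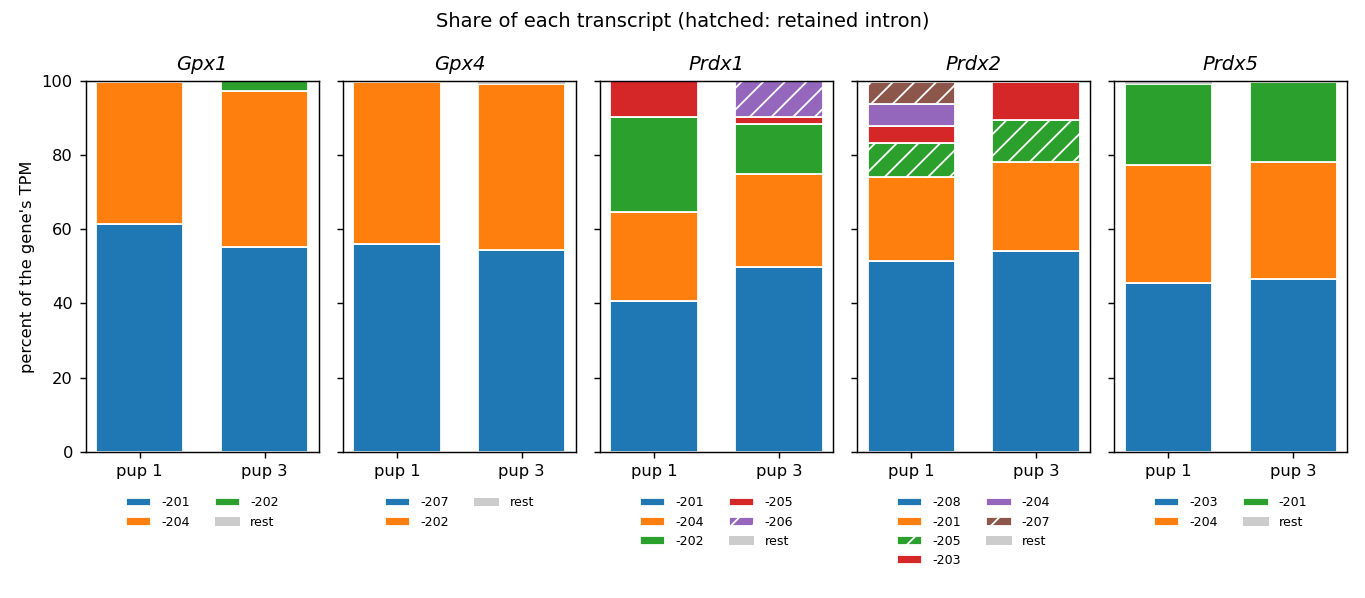
Percent of each gene's TPM deposited for each transcript of the 5 genes with several annotated transcripts, pup 1 left and pup 3 right; hatched parts are retained-intron transcripts, and grey gathers transcripts under 2% in both pups. Gpx4 and Prdx5 had close to the same composition in both pups, while Prdx1-202 held 25.7% in pup 1 and 13.3% in pup 3.

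Transcript composition was described for the 5 genes with more than 1 transcript in the authors' annotation; Mt1, Mt2, Mt3, Sod1 and Sod2 had 1 each. Gpx4 had nearly the same composition at its higher level in pup 3: Gpx4-207, with 157 codons, took 55.9% in pup 1 and 54.5% in pup 3, and Gpx4-202, with 197 codons including the mitochondrial leader, took 43.9% in pup 1 and 44.6% in pup 3. The 253-codon transcript Gpx4-201, which encodes the form known from sperm nuclei, had 5.03 expected counts in pup 1 against 0 in pup 3. Prdx5 was equally steady, its leading transcript Prdx5-203 holding 45.5% in pup 1 and 46.6% in pup 3. For Gpx1, the full-length Gpx1-201 took 61.5% in pup 1 and 55.3% in pup 3. Prdx1-201 and Prdx1-202 took 40.8% and 25.7% in pup 1 and 49.7% and 13.3% in pup 3. The retained-intron transcript Prdx1-206 held 0.11% in pup 1 and 9.77% in pup 3. In Prdx2 the leading transcript Prdx2-208 was steady, with 51.3% in pup 1 and 54.2% in pup 3, and the retained-intron Prdx2-207 had 1161 expected counts in pup 1 against 0 in pup 3. These splits are estimates from reads that the transcripts of a gene share.

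Some reads of these genes could belong to other loci. Of the 100-base windows in GENCODE M21 transcripts, 25.2% of those of Gpx4 recurred in Gpx4-ps2 or AC122253.3, and 12.8% of those of Sod2 in AC166110.4 or Rps6ka2; Rps6ka2 had 1 expected count in pup 1 and 0 in pup 3. AC166110.4 and the genes sharing windows with Gpx4 were not matched in the tables, so reads from them cannot be told apart from those of Sod2 and Gpx4. Prdx1 and Prdx2 shared 0.61% and 1.94% of their windows with pseudogenes that had at most 46.0 expected counts in a pup. The pseudogene Gm8566, which shares 0.57% of Sod1 windows, had 151 expected counts in pup 1 against 53.7 in pup 3, far below those of Sod1. Among overlapping genes, Rnaseh2a, on the opposite strand at the start of Prdx2, had 2856 expected counts in pup 1 against 28.0 in pup 3. Trmt112, opposite Prdx5, had 1723 in pup 1 and 2374 in pup 3, Scaf4, opposite Sod1, had 3 in pup 1 and 538 in pup 3, and Junb beside Prdx2 was at 0 in both. Gm37401, which starts within 1 kb of Gpx1, had 30.4 expected counts in pup 1 against 33.1 in pup 3, and Gm45774, opposite Mt2, and Gm49661 near Prdx2 were not analysed here. The sources used here do not give the strand setting, so reads of opposite genes cannot be told apart where they overlap.

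**Figure D4:**
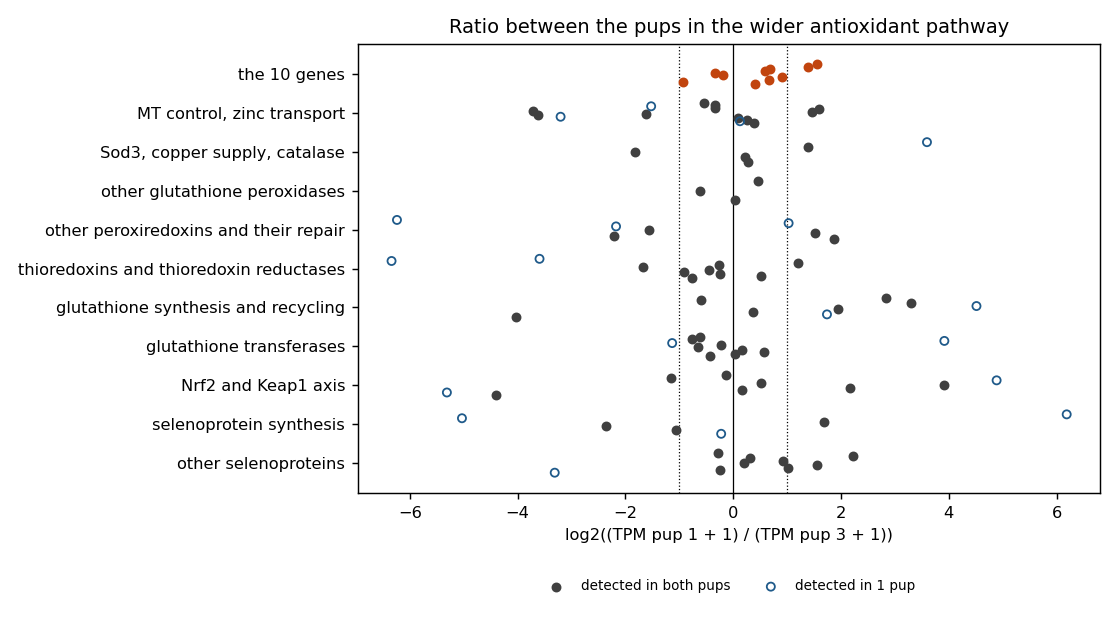
Log2 ratio of pup 1 over pup 3 (TPM + 1) for the 10 genes and for 10 lists of other pathway genes; filled points were detected in both pups, open points in 1 pup, and dotted lines mark 2-fold. Of the 10 genes all but Sod1 and Sod2 lie within the lines, and the 19 pathway genes detected in 1 pup spread widely to both sides.

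The rest of the pathway was covered unevenly. Of 92 other genes in 10 lists, 62 (67.4%) were detected in both pups, against 37.8% of protein-coding genes. Another 8 were seen only in pup 1, 11 only in pup 3, and 11 were missing from both. The share of all protein-coding genes seen in 1 pup only was not computed. The genes seen in 1 pup are therefore not read as a trait of this pathway. Of the 77 with at least 50 counts in a pup, 22 were 2-fold or more higher in pup 1 and 20 were 2-fold or more higher in pup 3, counts that lie below the 35.6% and 28.7% of all protein-coding genes. The 62 had a median log2 ratio of 0.03 (pup 1 over pup 3). The mean TPM of 35 of the 92 exceeded that of Sod2, the lowest of the 10, and that of 4 exceeded the median of the 10. For genes detected in 1 pup, only expected counts are given below.

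Around the metallothioneins, Mt4, the form of stratified epithelia, was at 0 in both pups. Mtf1, which encodes the metal sensor, had 53.4 TPM in pup 1 against 40.5 TPM in pup 3. Of the zinc transporters the highest were Slc39a7, an importer into the cytosol from the secretory pathway, with 83.4 TPM in pup 1 against 123 TPM in pup 3, Slc39a1 with 103 TPM in pup 1 against 33.7 TPM in pup 3, and Slc39a6 with 48.1 TPM in pup 1 against 61.5 TPM in pup 3. Of the 8 Slc30a exporters listed, 6 were detected in both pups, led by Slc30a3 with 50.1 TPM in pup 1 against 47.2 TPM in pup 3. The others were seen in 1 pup: Slc30a4 had 0 counts in pup 1 against 804 in pup 3, and Slc30a1, a classic MTF-1 target of the plasma membrane, had 10 counts in pup 1 against 0 in pup 3. Slc39a14 had 0 counts in pup 1 against 13 in pup 3. Of the 12 genes of this list with at least 50 counts in a pup, 2 were 2-fold or more higher in pup 1 and 4 in pup 3, beside 35.6% and 28.7% of all protein-coding genes.

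Around the superoxide dismutases, catalase (Cat) had 222 TPM in pup 1 against 192 TPM in pup 3, and the copper chaperone gene Atox1 had 269 TPM in pup 1 against 223 TPM in pup 3. Ccs, whose product loads copper into Sod1, had 40.4 TPM in pup 1 against 145 TPM in pup 3, the opposite direction to Sod1. The extracellular enzyme gene Sod3 had 797 counts in pup 1 against 0 in pup 3. Sod1 was above each of these genes in both pups. Among other glutathione peroxidases, Gpx3, the secreted form, had 151 TPM in pup 1 against 147 TPM in pup 3, Gpx8 had 84.6 TPM in pup 1 against 61.3 TPM in pup 3, and Gpx7 had 38.3 TPM in pup 1 against 59.7 TPM in pup 3. None of these 3 differed by 2-fold, and Gpx2, Gpx5 and Gpx6 were at 0 in both.

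The other peroxiredoxins were lower and less steady than Prdx1, Prdx2 and Prdx5. Prdx4, the enzyme of the endoplasmic reticulum, had 77.0 TPM in pup 1 against 362 TPM in pup 3, Prdx6 had 247 TPM in pup 1 against 85.4 TPM in pup 3, and the mitochondrial Prdx3 had 207 TPM in pup 1 against 55.9 TPM in pup 3. Each of these 3 differed by more than 2-fold, Prdx4 by 4.70-fold with the higher value in pup 3, Prdx3 by 3.71-fold and Prdx6 by 2.89-fold with the higher value in pup 1. Srxn1, whose product repairs over-oxidised peroxiredoxins, had 0 counts in pup 1 against 1847 in pup 3. Sesn2 had 0 counts in pup 1 against 217 in pup 3, and Sesn3 had 51 in pup 1 and 3 in pup 3.

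Thioredoxin, the electron donor of the peroxiredoxins, is encoded by Txn1, which had 214 TPM in pup 1 against 407 TPM in pup 3. Its mitochondrial relative Txn2 had 190 TPM in pup 1 against 260 TPM in pup 3, and Txnip, which binds and inhibits thioredoxin, had 103 TPM in pup 1 against 332 TPM in pup 3. All 3 were higher in pup 3, Txnip by 3.23-fold. The reductase genes went both ways: Txnrd1 had 61.4 TPM in pup 1 against 26.1 TPM in pup 3, 2.36-fold higher in pup 1, whereas Txnrd2 and Txnrd3 had 0 counts in pup 1, against 1842 and 554 in pup 3. In glutathione synthesis and recycling, 5 of the 8 genes with at least 50 counts in a pup were 2-fold or more higher in pup 1 and 1 in pup 3, beside 35.6% and 28.7% of all protein-coding genes. Slc3a2 had 80.4 TPM in pup 1 against 122 TPM in pup 3, Ggt7 had 86.7 TPM in pup 1 against 66.7 TPM in pup 3, and Pgd, an NADPH source, had 92.9 TPM in pup 1 against 8.54 TPM in pup 3. Gss and Gclm, which act in glutathione synthesis, had 745 and 230 counts in pup 1, against 0 of either in pup 3.

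Glutathione transferases conjugate glutathione to reactive compounds, and the leading ones were at the level of the 10 genes. Gstm1 had 556 TPM in pup 1 against 547 TPM in pup 3, Gstp1 had 501 TPM in pup 1 against 585 TPM in pup 3, and Mgst3 had 248 TPM in pup 1 against 381 TPM in pup 3, so none of the 3 differed by 2-fold. Gstp1 and Gstp2 are near-identical copies, uncertain individually; Gstp2 had 0 counts in pup 1 against 14.7 in pup 3. Gstt1 had 274 counts in pup 1 against 0 in pup 3. On the Nrf2 axis, Nfe2l2, which encodes the transcription factor Nrf2 itself, had 1406 counts in pup 1 against 0 in pup 3. Hmox1, a haem oxygenase gene and Nrf2 target, had 1 count in pup 1 and 1177 in pup 3. The other genes of that list were led by Park7 with 571 TPM in pup 1 against 627 TPM in pup 3, Hmox2 with 151 TPM in pup 1 against 135 TPM in pup 3, and Nqo1 with 24.4 TPM in pup 1 against 55.8 TPM in pup 3.

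Gpx1 and Gpx4 depend on selenocysteine insertion. Of the 8 genes listed around that process, the 3 highest were Pstk, Trnau1ap and Sephs1. Pstk had 29.7 TPM in pup 1 against 63.1 TPM in pup 3, and Sephs1 had 28.5 TPM in pup 1 against 8.17 TPM in pup 3. Trnau1ap had 1533 counts in pup 1 against 0 in pup 3, Sephs2 had 2 in pup 1 and 791 in pup 3, and Eefsec had 3 in pup 1 and 11 in pup 3, so the list was seen only in pieces. The selenoproteins themselves were better covered, with 8 of 9 detected in both pups. Selenow had 1737 TPM in pup 1 against 2119 TPM in pup 3, above each of the 10 genes in pup 3. Selenom had 484 TPM in pup 1 against 421 TPM in pup 3, and Selenof 410 TPM in pup 1 against 488 TPM in pup 3. Msrb1 had 1 count in pup 1 and 135 in pup 3.

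Cell type markers were present for the labelled tissue. All 6 neuronal markers were detected in both pups, led by Tubb3, Stmn2 and Gap43. Their summed level was 8704 TPM in pup 1 against 6314 TPM in pup 3, but the markers went both ways. Tubb3, Stmn2 and Rbfox3 were 1.91-fold, 1.48-fold and 2.59-fold higher in pup 1. Map2, Snap25 and Gap43 were 1.86-fold, 1.04-fold and 1.02-fold higher in pup 3. All 7 astrocyte and radial glia markers were detected in both, summing to 8034 TPM in pup 1 against 7444 TPM in pup 3, a 1.08-fold difference. The 3 highest were Apoe and Aldoc, 1.10-fold and 1.15-fold higher in pup 1, and Fabp7, 1.08-fold higher in pup 3. Of the other 4, Gfap was 2.25-fold, Slc1a2 2.14-fold, Slc1a3 1.89-fold and Aqp4 1.27-fold higher in pup 1. Of the metallothioneins, Mt1 was 1.58-fold and Mt2 1.87-fold higher in pup 1, and Mt3 was 1.15-fold higher in pup 3. A link between these markers and the metallothioneins was not tested. Erythroid markers, led by Hba-a2, Hbb-bs and Hba-a1, summed to 1486 TPM in pup 1 against 3941 TPM in pup 3, 2.65-fold higher in pup 3, with 4 of 7 detected in both. Prdx2 and Gpx1, which red blood cells also contain, were higher in pup 1, and the part of blood in their levels was not tested. The defining red cell genes Alas2 and Slc4a1 had 909 and 0 counts in pup 1, against 0 and 1 in pup 3.

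Sums for the other cell types were smaller or closer. Choroid plexus markers, nearly all Ttr, summed to 3101 TPM in pup 1 against 3435 TPM in pup 3, with Folr1 detected in both and Kl at 0. Oligodendrocyte lineage markers (Mbp, Pdgfra, Olig1) summed to 344 TPM in pup 1 against 248 TPM in pup 3, and Olig2 was under 5 counts in both. The 5 microglial markers, led by C1qb, Ctss and C1qa, summed to 158 TPM in pup 1 against 166 TPM in pup 3. Singly they differed more: C1qb was 1.93-fold higher in pup 1, and C1qa and Ctss were 7.70-fold and 2.68-fold higher in pup 3. Csf1r had 2027 counts in pup 1 against 0 in pup 3, and Cx3cr1 had 0 in pup 1 and 6 in pup 3. The 4 endothelial markers, led by Cldn5, Egfl7 and Flt1, summed to 131 TPM in pup 1 against 206 TPM in pup 3. Flt1 had 0 counts in pup 1 against 4782 in pup 3, and Pecam1 had 19 in pup 1 and 3 in pup 3. Meningeal markers summed to 113 TPM in pup 1 against 199 TPM in pup 3, from Dcn and Col1a1, with Lum at 1 count in pup 1 and 0 in pup 3. The part of cell mixture, of low input and of depth in the differences between the pups was not tested.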

How the data were processed

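Levels came from 1 gene and 1 transcript table per library, deposited on assembly mm10 with annotation M4, per the notes deposited with them. Per the file headers the tables hold an expected count (reads shared among transcripts are split, so values need not be whole), TPM, FPKM, and a posterior SD of the count, here treated as a score of how far a count is shared with other genes. For each transcript the deposited tables also give its percent of the TPM of its gene. The sources used here do not give the aligner, quantifier, versions or strand setting. The posterior SD was 0 in both pups for 6 of the 10 genes and at most 11.3 counts for the rest.

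Of 69691 entries, 43346 were mouse genes, of which 42462 matched GENCODE M21 on GRCm38 by stable identifier for names and 1-based coordinates. TPM was rescaled over 43309 nuclear genes, whose share of the deposited TPM was 88.6% (pup 1) and 89.6% (pup 3). Detection asked for 5 or more expected counts. Log2 was taken of TPM plus a pseudocount of 1. Folds were counted among genes with at least 50 counts in a pup. With 2 libraries in 1 group no test was possible, and spread between them may be biological or technical. Promoter windows came from RefSeq (GRCm38.p6), with a window for all 10 genes. Scaling factors came from edgeR 4.0.16 and DESeq2 1.42.0 on rounded expected counts. Python 3.11.15 with pandas 2.3.3 was used otherwise. The genes, lists and thresholds were chosen with earlier results of these data known. Genes named were all 10, the 3 highest of each list by mean TPM and those detected in 1 pup only, the 3 genes nearest Sod1 in level, and genes overlapping or starting within 1 kb of the 10. Outside that rule Mt4, Slc1a2, Slc1a3, Gfap, Aqp4, Snap25, Map2, Rbfox3, Slc30a3, Txnrd1, Mtf1, Gpx2, Gpx5, Gpx6, Slc4a1, Kl, Olig2, Lum and the genes sharing windows were named after their values were seen.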

Additional observations from a re-analysis of the deposited data

How the results depend on the processing

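Across 7 other scalings (deposited TPM, TPM over protein-coding genes, FPKM, CPM, CPM with edgeR factors, counts over DESeq2 size factors and, chosen after seeing the data, CPM scaled to the spike-in total), each of the 10 genes kept its direction. Apart from the length scaling, each scaling multiplies all genes of a library by 1 factor, so larger differences had little room to change direction. Mt3 came closest to no difference, with a log2 ratio of -0.09 under DESeq2 size factors. For the 10 genes the median log2 ratio (pup 1 over pup 3) was 0.62 and ranged from 0.44 with spike-in scaling to 0.69 with DESeq2 size factors. Among these, 3 scalings moved the median of all protein-coding genes detected in both pups by over 0.1: by 0.12 with edgeR factors, by 0.14 with DESeq2 size factors and by -0.11 with spike-in scaling. The number past 2-fold was 2, and 3 with DESeq2 size factors (Mt2 added, higher in pup 1) or spike-in scaling (Gpx4 added, higher in pup 3). Of all protein-coding genes with at least 50 counts in a pup, 37.5% (higher in pup 1) and 26.4% (higher in pup 3) passed with DESeq2 size factors. With spike-in scaling 34.5% and 29.9% did. At 1.5-fold the number was 6, 5 of them higher in pup 1, beside 41.9% and 35.8% of those genes. At 4-fold it was 0, beside 27.7% and 18.3%. The number falls as the threshold rises, by the construction of the threshold. All 10 genes were detected under every detection setting tried. In the wider lists, 55 to 67 of 92 genes were detected in both pups by setting, and 70 to 73 in a single library, without replicate 2 or without replicate 1. Of 20 levels recomputed on another TPM scale, 18 stayed within 1 SD of the mean reported. Mt3 moved to 342 TPM on the deposited scale and to 435 TPM over protein-coding genes, beside 384 TPM as reported. Each of these scales multiplies all genes of a library by 1 factor, so the outcome depends on each gene's SD. Mt3 had the smallest SD relative to its mean (9.61%), so the count does not show that Mt3 depends more on the scale. Neighbouring levels that did not overlap numbered 2 under each scale tried. No paired analysis was possible because there was 1 group. Each pup is 1 library of 13 pg, so a difference of any size cannot be assigned to the animal or to the library.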
